A study of Homo sapiens with 6 samples.

Results

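Retinoid metabolism is described here through 9 genes, CRABP2, STRA6, LRAT, RDH10, DHRS9, DHRS3, RDH11, ALDH1A3 and CYP26B1, chosen by name among the 58735 genes of the deposited expression table. All 9 were found by symbol. The cells were HaCaT, an immortalised line of human keratinocytes whose genotype is labelled WT, kept in medium with fetal bovine serum. RNA sequencing compared 3 control samples with 3 samples exposed for 48 h to dacomitinib, a drug that binds covalently to EGFR and related receptor tyrosine kinases and blocks them, to learn which pathways differ between them. Treatment began at 70% confluence. The design text attaches 0.1% DMSO to the experimental group, and neither the drug's dose nor the vehicle of the controls is given in the sources used here. The columns of the dacomitinib libraries carry a letter found in none of the labels, and elimination put them in that group, so every direction below rests on this assignment.

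Keratinocytes take up retinol, the alcohol form of vitamin A, and store it as retinyl esters. Retinol is oxidised reversibly to retinaldehyde and then irreversibly to retinoic acid, which enters the nucleus and acts through heterodimers of the receptors RAR and RXR. Short-chain dehydrogenases set the balance of the first step, aldehyde dehydrogenases carry out the second, and CYP26 enzymes remove the product. In epidermis, retinoic acid is known for opposing terminal differentiation, and many genes of the pathway are themselves retinoic acid targets.

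Of the 9 genes, 5 rose with dacomitinib, 1 fell and 2 did not pass the test, while LRAT was too weakly expressed to be tested. The largest rise was that of the retinol receptor STRA6, 5.45-fold in mean FPKM. The retinol dehydrogenase RDH10 rose 2.61-fold, the retinaldehyde dehydrogenase ALDH1A3 1.71-fold, the retinaldehyde reductase DHRS3 1.62-fold and the retinoic acid hydroxylase CYP26B1 1.49-fold. RDH11, another retinaldehyde reductase, was 1.45-fold lower. FPKM is a fragment count divided by the length of the gene and by the size of the library. Differences are dacomitinib minus control in log2(FPKM + 1), which understates changes of weak genes, with the standard error (SE) of the fit and the adjusted p of limma over all 13748 genes that reached a mean of 1 FPKM. Called means an adjusted p under 0.05.

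The background is high. Of all tested genes 60.2% were called, 25.4% higher and 34.8% lower, so 6 of 8 tested members called is read against that share. The median difference was 0.54 over the 8 tested members and -0.06 over all tested genes. The scaling between libraries moves every gene together: rescaled to TPM, in which each library sums to the same total, the median of all tested genes shifted by 0.29 to 0.23, and the median of the members was 0.90. With TPM the same numbers of members were called, 5 higher and 1 lower, against 61.8% of all tested genes called, 42.0% higher and 19.8% lower. With quantile normalization 5 were higher and 2 lower, against 59.0% called, 30.4% higher and 28.6% lower.

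The libraries held between 14960650 and 16179273 fragments on genes. Mitochondrial genes took 7.38% to 8.08% of them in the controls and 4.61% to 4.90% with dacomitinib, and the part of this difference in the results below was not tested. Log2 values correlated across genes at 0.970 to 0.979 within groups (genes are not independent replicates). All 10 keratinocyte markers listed for the purpose were expressed, with a summed level of 1396 to 1472 FPKM in controls and 1125 to 1304 with dacomitinib. Of these, KRT17, DSG3, PERP and COL17A1 were called higher, KRT5, KRT14, KRT6A and ITGA6 were called lower, and TP63 and SFN were not called. With TPM the calls of KRT5 and ITGA6 were lost and TP63 was called higher. KRT5 stood at 452 ± 23.0 and 358 ± 38.2 FPKM, and KRT17 at 13.6 ± 0.572 and 26.2 ± 1.19 FPKM (SD, n = 3). Markers of other skin cells summed to far less than the keratinocyte markers, but several of them were higher with dacomitinib. The 7 fibroblast markers summed to 0.853 to 1.24 FPKM in controls and 2.28 to 3.62 with dacomitinib, and COL1A2 and PDGFRA had 0 fragments in any library. COL3A1 was called higher, at 0.705 ± 0.0716 and 1.51 ± 0.209 FPKM (SD, n = 3). Summed over each group, controls first, DCN had 11 and 584 fragments and LUM 1 and 43. COL1A1, with 143 and 107, and VIM, with 3 and 0, did not rise. The 5 endothelial markers summed to 1.81 to 2.22 and 10.6 to 13.5 FPKM, mostly CDH5 at 1.15 ± 0.0836 and 10.0 ± 1.39 FPKM (SD, n = 3), and KDR had 0 fragments. VWF had 153 control and 628 dacomitinib fragments in all. PECAM1, with 164 and 311, overlapped between the groups, and TEK had 2 and 0. The 5 melanocyte markers summed to 2.41 to 2.77 and 3.28 to 4.13 FPKM, the 5 immune markers to at most 0.249 and the 4 sebocyte markers to at most 1.03. Among the melanocyte markers, PMEL had 106 control and 261 dacomitinib fragments in all and DCT 3 and 23, while MLANA and MITF overlapped between the groups. TYR, CD1A, MC5R and AWAT2 had 0 fragments. The part of these genes in the results below was not tested. In bulk RNA, fewer cells of a type and less RNA per cell cannot be told apart.

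The promoters of 4 genes that rose are shown so that the letters can be set beside the values. They come from RefSeq (GRCh38.p14), 250 bases before to 50 after an annotated start, 5′ to 3′ on the gene's strand. Of the 9 members, 8 had at least 1 such window, 17 in all, and RDH10 was not matched. Where a gene has several starts, the window nearest to the start in the deposited table is printed. For STRA6, ALDH1A3, DHRS3 and CYP26B1 the printed start lies 8, 2117, 479 and 176 bases from the start in that table. Capitals mark 3 motifs: the hexamer AGGTCA with its variants AGTTCA, or GGGTCA, or else GGTTCA, which are half-sites of retinoid receptor elements; the GC box GGGCGG; and TATAAA, each on either strand.
STRA6, chr15:74212210-74212509, minus strand: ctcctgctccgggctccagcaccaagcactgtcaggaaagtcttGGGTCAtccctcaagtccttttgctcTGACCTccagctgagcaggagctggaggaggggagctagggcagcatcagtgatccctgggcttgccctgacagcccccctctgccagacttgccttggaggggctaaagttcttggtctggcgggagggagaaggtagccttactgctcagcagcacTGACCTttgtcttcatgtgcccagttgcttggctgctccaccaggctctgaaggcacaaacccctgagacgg
ALDH1A3, chr15:100879581-100879880, plus strand: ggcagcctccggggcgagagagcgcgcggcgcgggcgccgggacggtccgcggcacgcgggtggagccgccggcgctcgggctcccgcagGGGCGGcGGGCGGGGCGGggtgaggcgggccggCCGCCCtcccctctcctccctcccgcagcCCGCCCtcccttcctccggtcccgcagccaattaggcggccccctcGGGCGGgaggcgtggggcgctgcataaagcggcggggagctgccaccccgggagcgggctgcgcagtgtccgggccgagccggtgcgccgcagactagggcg
DHRS3, chr1:12618161-12618460, minus strand: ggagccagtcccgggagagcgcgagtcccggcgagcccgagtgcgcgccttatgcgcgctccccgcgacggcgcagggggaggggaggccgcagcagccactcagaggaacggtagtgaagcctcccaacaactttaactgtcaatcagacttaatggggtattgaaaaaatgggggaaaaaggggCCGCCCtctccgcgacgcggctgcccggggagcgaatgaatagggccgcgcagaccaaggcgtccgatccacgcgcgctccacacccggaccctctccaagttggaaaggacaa
CYP26B1, chr2:72147813-72148112, minus strand: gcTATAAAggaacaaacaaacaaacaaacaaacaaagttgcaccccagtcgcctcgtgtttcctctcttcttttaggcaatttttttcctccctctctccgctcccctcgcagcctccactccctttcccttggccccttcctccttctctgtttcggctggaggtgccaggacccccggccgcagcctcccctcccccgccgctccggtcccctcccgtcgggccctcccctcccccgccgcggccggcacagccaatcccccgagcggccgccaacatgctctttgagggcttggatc

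The STRA6 window held 3 half-sites and the ALDH1A3 window 6 GC boxes, with 81.7% G or C. The printed windows differ from one another in these motifs, and a link between the motifs and the rises was not tested. At least 1 half-site occurred in 38.6% of all 35116 promoter windows of the same length, and in 6 of the 17 member windows, those of CRABP2, STRA6, DHRS9 and DHRS3. A GC box occurred in 45.0% of all windows and in 4 of the 17 member windows, and TATAAA in 11.5% and in 5 of the 17. A direct repeat of the half-sites with a spacer of 1, 2 or 5 bases, the usual form of a retinoic acid response element, occurred in 0 of the 17 member windows, and in 0.131%, 0.0399% and 0.0883% of all windows. These are letter matches in short windows and say nothing of elements farther away.
The repeats below, from the windows of 2 classical retinoic acid targets, show what the search finds, with half-sites in capitals.
RARB, chr3:25428210-25428226, plus strand: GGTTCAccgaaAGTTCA
CYP26A1, chr10:93073803-93073819, minus strand: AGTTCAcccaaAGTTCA

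STRA6 is the membrane receptor that takes up retinol from its plasma binding protein (ENSG00000137868, chromosome 15, 74179466 to 74212267, GRCh38). It measured 1.90, 1.70 and 1.52 FPKM in the controls and 9.73, 9.55 and 8.64 FPKM in the dacomitinib libraries. The groups lay far apart, with every treated library above every control. The difference was 1.93 (SE 0.08, limma adjusted p = 4.89e-06), and 0.618% of tested genes had a larger rise. These values rest on 581 fragments summed over the controls and 3627 summed over the treated libraries.

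On the opposite strand, CCDC33 overlaps the STRA6 gene and shares 540 of its 7690 exonic bases (7.02%). CCDC33 rose as well, from 0.554 ± 0.106 to 4.52 ± 0.263 FPKM (SD, n = 3), a difference of 1.83 (SE 0.10, limma adjusted p = 1.54e-05). The sources do not say whether counting used strand, so fragments of the 2 genes on the shared bases cannot be told apart. CCDC33 held 174 control and 1619 dacomitinib fragments, fewer than STRA6 in both groups.

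CRABP2 carries retinoic acid in the cytoplasm and delivers it to the nuclear receptor (ENSG00000143320, chromosome 1, 156699606 to 156705816). It measured 19.3, 22.7 and 14.2 FPKM in the controls and 20.2, 15.2 and 13.2 FPKM with dacomitinib. The groups overlapped, and the spread within a group, a coefficient of variation of 22.8% in controls and 22.4% with dacomitinib, was the widest of the members in controls. The difference was -0.20 (95% confidence interval -0.68 to 0.28, limma adjusted p = 0.433), and its sign turned with TPM (0.11) and with quantile normalization (0.021).

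LRAT esterifies retinol for storage (ENSG00000121207, chromosome 4, 154626945 to 154753118). It measured 0.262, 0.309 and 0.243 FPKM in the controls and 0.261, 0.247 and 0.274 FPKM with dacomitinib. The groups overlapped, at 91 fragments in all controls and 100 in all treated libraries, and the gene was below the expression limit of the test. With 27 to 36 fragments in a library, only a large difference could be seen.

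RDH10 oxidises retinol to retinaldehyde and is the main enzyme of that step in the embryo (ENSG00000121039, chromosome 8, 73294612 to 73325281). It measured 11.4, 12.6 and 11.9 FPKM in the controls and 35.2, 31.0 and 27.8 FPKM with dacomitinib. All treated libraries stood above all controls. The difference was 1.31 (SE 0.09, limma adjusted p = 3.72e-05), and 2.50% of tested genes had a larger rise. Its antisense gene RDH10-AS1, which shares 5.22% of its exonic bases, rose from 0.593 ± 0.285 to 2.06 ± 0.307 FPKM (SD, n = 3), on 101 and 396 fragments against 2829 and 8443 for RDH10.

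DHRS9, another dehydrogenase that can oxidise retinol and is known from epidermis (ENSG00000073737, chromosome 2, 169064789 to 169096167), was weakly expressed. It measured 1.54, 1.38 and 1.18 FPKM in the controls and 1.16, 0.739 and 0.598 FPKM with dacomitinib. The groups did not overlap, but the highest treated library nearly reached the lowest control. The difference of -0.38 (95% confidence interval -0.78 to 0.02) did not pass (limma adjusted p = 0.0901). Without dacomitinib replicate 1 it passed, at -0.50 (limma adjusted p = 0.0386, with 0.0316 to 0.299 over its alternatives), and it rests on 227 and 158 fragments.

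DHRS3 reduces retinaldehyde back to retinol and is itself a known retinoic acid target (ENSG00000162496, chromosome 1, 12567910 to 12617731). It measured 20.2, 20.4 and 18.5 FPKM in the controls and 33.4, 30.3 and 32.2 FPKM with dacomitinib. The groups were well separated. The difference was 0.67 (SE 0.06, limma adjusted p = 9.87e-05), and 11.2% of tested genes had a larger rise.

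RDH11, which also reduces retinaldehyde and is widely expressed (ENSG00000072042, chromosome 14, 67676801 to 67695814), went the other way. It measured 19.3, 19.6 and 18.4 FPKM in the controls and 13.4, 14.2 and 11.9 FPKM with dacomitinib. Every treated library lay below every control. The difference was -0.51 (SE 0.07, limma adjusted p = 0.000839), and 21.1% of tested genes had a larger fall. It narrowed to -0.22 with TPM, where it only just passed (limma adjusted p = 0.0473, the highest over its alternatives, which begin at 1.13e-05).

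ALDH1A3, which oxidises retinaldehyde to retinoic acid, was the most abundant member in both groups (ENSG00000184254, chromosome 15, 100877714 to 100916626). It measured 45.3, 44.1 and 47.2 FPKM in the controls and 80.3, 77.1 and 75.6 FPKM with dacomitinib. The libraries of a group differed little and the groups lay far apart. The difference was 0.76 (SE 0.04, limma adjusted p = 2.14e-05), and 9.42% of tested genes had a larger rise. An antisense gene, AC015712.2, shares 27.5% of its exonic bases and rose from 5.38 ± 0.264 to 9.46 ± 0.615 FPKM (SD, n = 3), on 1619 and 3262 fragments against 11626 and 22736 for ALDH1A3. Without strand, the shares of these 2 genes in the common bases cannot be told apart.

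CYP26B1 hydroxylates retinoic acid and so begins its removal (ENSG00000003137, chromosome 2, 72129238 to 72148038). It measured 1.83, 2.06 and 1.78 FPKM in the controls and 2.48, 2.79 and 3.19 FPKM with dacomitinib. The groups did not overlap. The difference was 0.40 (SE 0.10, limma adjusted p = 0.0130), on 420 and 718 fragments, and 20.6% of tested genes had a larger rise. Over its alternatives the limma adjusted p ran from 0.000974 to 0.0452.

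**Figure D1:**
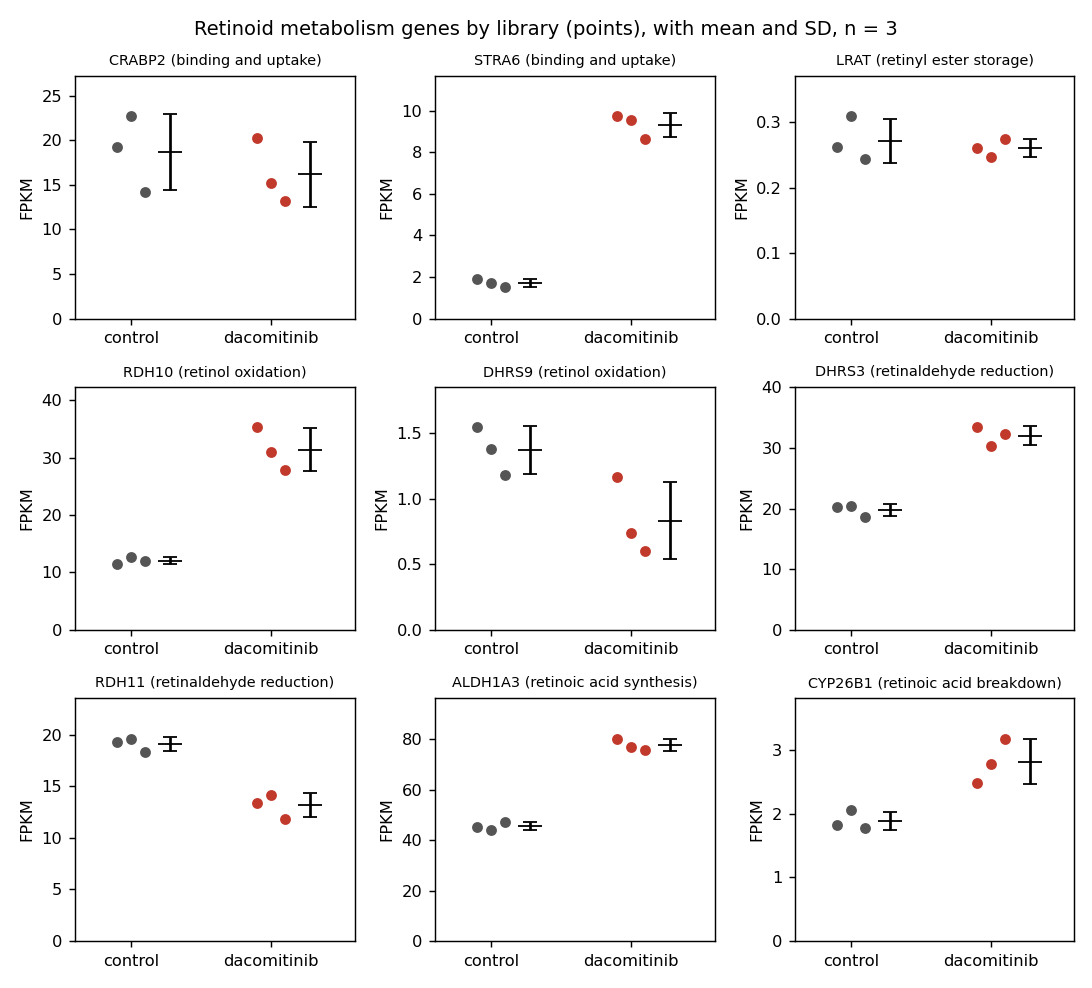
FPKM (vertical axes, each from 0) of the 9 genes in the 3 control and 3 dacomitinib libraries; points are libraries, and the bar is the mean with SD. STRA6, RDH10, DHRS3, ALDH1A3 and CYP26B1 are higher in every dacomitinib library, RDH11 and DHRS9 are lower, with DHRS9 barely separated, and CRABP2 and LRAT overlap.

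Groups of libraries did not overlap for 7 of the 8 tested members, against 67.1% of all tested genes. The direction of the 5 rises and of the RDH11 fall was the same with TPM, median ratio scaling, quantile normalization and voom on fragments recovered from the FPKM. The plot of differences by scaling shows the range: STRA6 lay between 1.93 and 2.57, RDH10 between 1.31 and 1.67 and RDH11 between -0.51 and -0.22.

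**Figure D2:**
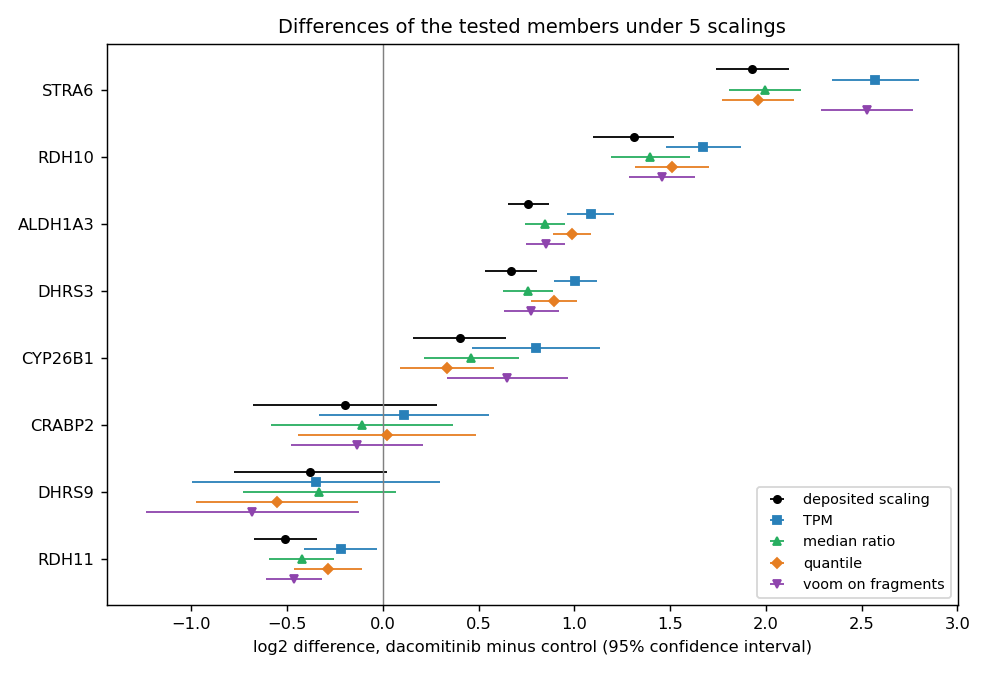
Log2 difference, dacomitinib minus control (horizontal axis), of the 8 tested members under the deposited scaling, TPM, median ratio, quantile normalization and voom; bars are 95% confidence intervals. The intervals of the 5 genes that rose lie above 0 and those of RDH11 below 0 under each of the 5, while those of CRABP2 cross 0.

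By level per gene length, the order of the members changed. In controls ALDH1A3 stood at 45.5 ± 1.55 FPKM, above DHRS3 at 19.7 ± 1.02, RDH11 at 19.1 ± 0.656 and CRABP2 at 18.7 ± 4.26, 3 genes whose neighbouring ranges overlapped (SD, n = 3). RDH10 followed at 12.0 ± 0.602 FPKM, below the range of CRABP2. CYP26B1 at 1.89 ± 0.148, STRA6 at 1.71 ± 0.190 and DHRS9 at 1.37 ± 0.183 FPKM overlapped their neighbours, and LRAT was lowest at 0.271 ± 0.0339.
With dacomitinib ALDH1A3 still led, at 77.7 ± 2.39 FPKM. RDH10, at 31.3 ± 3.74, now overlapped DHRS3, at 32.0 ± 1.55. CRABP2 at 16.2 ± 3.63 and RDH11 at 13.2 ± 1.18 overlapped each other. STRA6, at 9.31 ± 0.582 FPKM, stood apart from CYP26B1 at 2.82 ± 0.354 and from DHRS9 at 0.833 ± 0.294, and LRAT stood at 0.260 ± 0.0132.

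Ratios of 2 genes within a library do not depend on the scaling between libraries. They were chosen after the values were seen, and 3 against 3 libraries cannot give an exact p below 0.1, so they are given without a test. RDH10 over RDH11 was 0.592, 0.643 and 0.649 in the controls and 2.63, 2.18 and 2.34 with dacomitinib. The dehydrogenase was thus below the reductase in each control and above it in each treated library. RDH10 over DHRS3 was 0.565, 0.620 and 0.642 in the controls and 1.06, 1.02 and 0.861 with dacomitinib.

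The 2 members that oxidise retinol, RDH10 and DHRS9, together stood at 0.344 ± 0.0143 times the summed FPKM of the 2 that reduce retinaldehyde, DHRS3 and RDH11, in controls, and at 0.711 ± 0.0677 times with dacomitinib (SD, n = 3). ALDH1A3 over RDH10 went from 3.80 ± 0.270 to 2.50 ± 0.222, with no overlap. ALDH1A3 over CYP26B1, synthesis over breakdown, was 24.7, 21.4 and 26.5 in the controls and 32.4, 27.7 and 23.7 with dacomitinib, and the groups overlapped. STRA6 over LRAT went from 6.35 ± 0.879 to 35.8 ± 3.74. LRAT rests on few fragments and stood at 0.271 and 0.260 FPKM, so this ratio mainly repeats the STRA6 rise. Other genes of retinyl ester formation are not part of it.

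**Figure D3:**
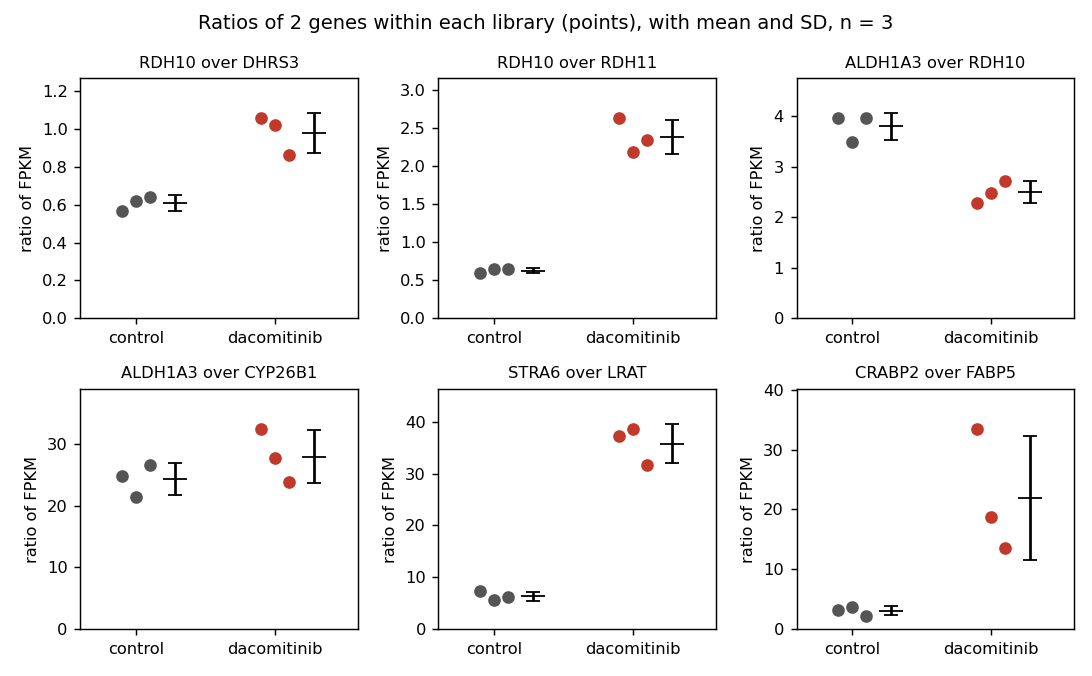
Ratio of the FPKM of 2 genes within each library (vertical axes, each from 0) in the 3 control and 3 dacomitinib libraries; points are libraries, and the bar is the mean with SD. RDH10 over RDH11 goes from below 0.65 to above 2.1, while ALDH1A3 over CYP26B1 overlaps between the groups.

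Around the members, 7 lists of other genes tied to retinoids held 74 different genes, of which 39 were expressed highly enough to be tested. The lists mix enzymes, receptors, cofactors and genes known to be raised or lowered by retinoic acid, so their pooled counts have no single reading. Of these, 19 were higher, 9 lower and 11 not called, with a median difference of 0.19 against -0.06 over all tested genes. Of all tested genes 60.2% were called, 25.4% higher and 34.8% lower. With TPM 23 were higher and 3 lower, with a median of 0.51 against 0.23, and 42.0% of all tested genes were higher and 19.8% lower. The counts of each list below are read against the same shares, and no list was tested as a set.

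Of 9 genes of uptake, binding and carotenoid cleavage, 3 were tested. FABP5, a fatty acid binding protein that can carry retinoic acid to the receptor PPARD, fell from 6.23 ± 0.258 to 0.795 ± 0.183 FPKM (SD, n = 3), a difference of -2.01 (SE 0.10, limma adjusted p = 1.01e-05). The table lists 13 FABP5 pseudogenes, with 89 control and 24 dacomitinib fragments in all, so the division of reads among these copies is uncertain. CRABP2 over FABP5 was 3.20, 3.69 and 2.18 in the controls and 33.4, 18.7 and 13.6 with dacomitinib. The ratio was higher in every treated library, with a wide spread among them.
SCARB1, a lipoprotein receptor that also takes up carotenoids, fell from 3.67 ± 0.0955 to 2.28 ± 0.0648 FPKM. BCO2, a carotenoid-cleaving oxygenase, rose from 0.860 ± 0.110 to 2.32 ± 0.470 FPKM (SD, n = 3). RBP4, RBP7 and CRABP1 were listed at 0 in all libraries.

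Of 17 other retinol and retinaldehyde oxidoreductases, 6 were tested, 1 of them higher and 2 lower, with a median of -0.12. AKR1C3, an aldo-keto reductase with near-identical relatives that make its counts uncertain, rose from 35.7 ± 8.35 to 50.8 ± 1.69 FPKM (limma adjusted p = 0.0225). It lost the call without control replicate 1, dacomitinib replicate 1 or dacomitinib replicate 3 (adjusted p = 0.0624, 0.0619 and 0.0607) and without the filter (adjusted p = 0.0604). RDH14, a relative of RDH11, fell from 12.3 ± 0.735 to 9.57 ± 1.08 FPKM, and the retinaldehyde reductase AKR1B10 from 19.0 ± 2.45 to 14.8 ± 1.67 FPKM (SD, n = 3). Neither passed with TPM (limma adjusted p = 0.672 and 0.773), and AKR1B10 was lost under 8 of 17 alternatives, among them leaving out control replicate 1 or 2 or dacomitinib replicate 1 or 3.

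Of 5 other enzymes of retinoic acid synthesis and breakdown, only ALDH1A1 was tested. This second retinaldehyde dehydrogenase rose from 0.780 ± 0.251 to 2.08 ± 0.294 FPKM (SD, n = 3), a difference of 0.80 (SE 0.15, limma adjusted p = 0.00406), far below the level of ALDH1A3. CYP26A1, the other main CYP26 enzyme, had 16 control and 17 dacomitinib fragments in all.

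Of 12 genes of retinyl ester formation and hydrolysis, 6 were tested, 4 of them higher and 1 lower, with a median of 0.89. PLAAT3 and PLAAT4, acyltransferases of the LRAT-like family, both rose, PLAAT3 from 2.63 ± 0.182 to 9.56 ± 0.629 FPKM and PLAAT4 from 7.77 ± 1.61 to 24.4 ± 3.13 (SD, n = 3). DGAT1, which can also esterify retinol, fell from 14.3 ± 0.496 to 10.0 ± 1.46 FPKM, a call lost with TPM (limma adjusted p = 0.0726).

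Of 13 retinoid receptors and cofactors, 12 were tested, 7 of them higher and 2 lower, with a median of 0.22 (10 higher and 1 lower with TPM). RARG, the main RAR of epidermis, rose from 28.7 ± 0.407 to 32.9 ± 1.52 FPKM and its partner RXRA from 38.3 ± 0.963 to 50.8 ± 3.52 FPKM (SD, n = 3), differences of 0.19 (SE 0.05) and 0.39 (SE 0.06). RARA, at 5.18 ± 0.292 and 5.76 ± 0.371 FPKM, RARB, at 0.887 ± 0.210 and 1.42 ± 0.392, and RXRB, at 14.1 ± 0.269 and 15.3 ± 1.51, did not pass as deposited but were called higher with TPM and with voom.
The corepressor NRIP1 rose from 14.4 ± 0.833 to 23.7 ± 0.224 FPKM (SD, n = 3). PPARD fell from 7.95 ± 0.224 to 6.74 ± 0.197 FPKM, with a sign that turned with TPM (0.076). Its call was also lost with median ratio scaling, quantile normalization and voom (limma adjusted p = 0.0659, 0.237 and 0.111).

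Of 13 genes known to be raised by retinoic acid, 9 were tested, 4 of them higher and 2 lower, with a median of 0.35 (6 higher and 0 lower with TPM). The 4 were PLAAT4, NRIP1, RARRES2 and the mucosal keratin KRT4, which rose from 20.4 ± 2.99 to 53.2 ± 13.3 FPKM. RARRES2 lost its call with quantile normalization and without the filter (limma adjusted p = 0.0935 and 0.0706). It was also not called without control replicate 1 or 3 or dacomitinib replicate 1 or 3. Of the list, 3 genes were higher and 3 lower without dacomitinib replicate 1. Leaving out any other library gave 3 or 4 higher and 1 lower. The simple-epithelial keratin KRT19, at 464 ± 11.1 and 371 ± 65.0 FPKM, and the EGFR ligand HBEGF, at 6.87 ± 0.640 and 5.41 ± 0.233 FPKM (SD, n = 3), were called lower. With TPM neither was called (limma adjusted p = 0.874 and 0.845). The KRT19 call was lost under 9 of 17 alternatives, among them leaving out any of the libraries except dacomitinib replicate 1.
CYP26A1, RARRES1 and TGM2 were among the genes below the expression limit.

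Of 10 keratinocyte genes known to be lowered by retinoic acid, 5 were tested, 3 of them higher and 0 lower, with a median of 0.92. FLG, the filaggrin precursor, rose from 2.47 ± 0.147 to 9.17 ± 0.480 FPKM and FLG2, its relative, from 0.309 ± 0.0884 to 1.79 ± 0.438 FPKM (SD, n = 3). The third was the cross-linking enzyme TGM1, and KRT10 and IVL did not pass.

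**Figure D4:**
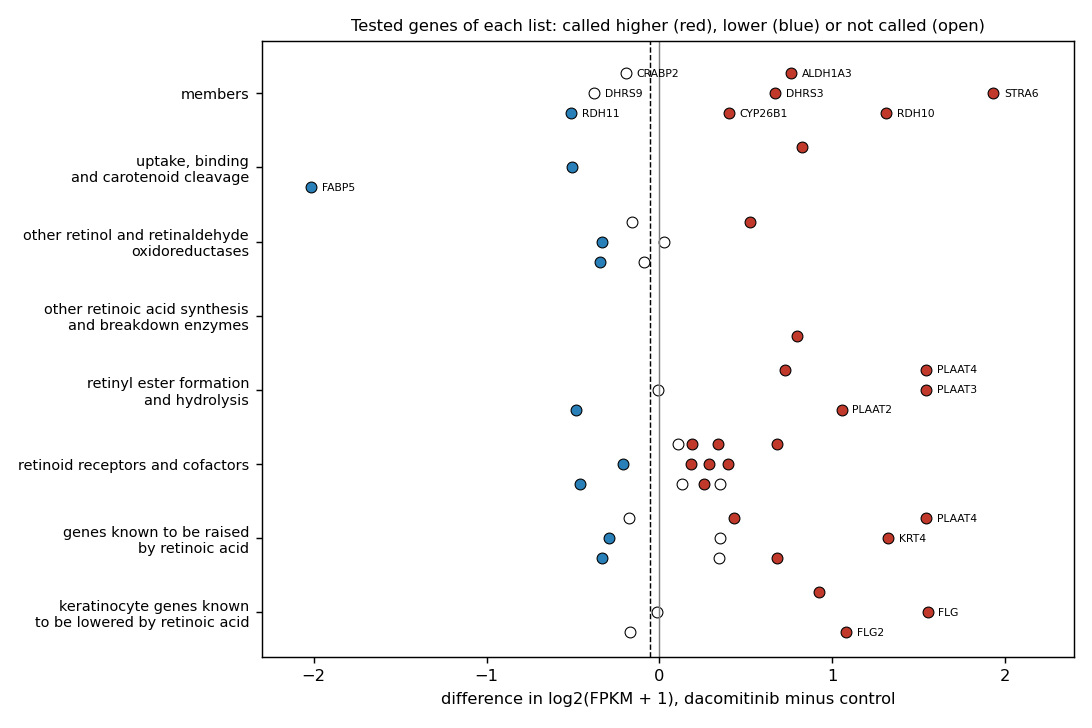
Difference in log2(FPKM + 1), dacomitinib minus control (horizontal axis), of the tested genes of each list; each point is a gene, red if called higher, blue if called lower and open if not called, and the dashed line is the median of all tested genes (-0.06). Symbols are given for the members and for differences beyond 1 in size.

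For the members with the largest rise and fall, the protein-coding genes with the most similar profile were found by the root mean square difference of centred log2(FPKM + 1) values over the 6 libraries, among 10621 genes. Nearest to STRA6 were SEMA5A (0.0469) and SEMA6D (0.0503), both semaphorins, and the histone gene HIST1H4H (0.0806), whose near-identical relatives make its counts uncertain. SEMA5A rose from 3.06 ± 0.372 to 14.5 ± 0.669 FPKM (SD, n = 3). SEMA6D rose from 0.328 ± 0.0630 to 4.01 ± 0.0166 FPKM, which is 12.2-fold against 5.45-fold for STRA6. With voom its difference was 3.70 against 2.53 for STRA6, so its nearness holds only on the log2(FPKM + 1) scale, which understates changes of weak genes. Nearest to RDH11 were NDUFA3 (0.0161), SHROOM2 (0.0224) and NAB2 (0.0303). SHROOM2 lost its call with TPM and without control replicate 1 or 2 (limma adjusted p = 0.109, 0.0600 and 0.0677). It fell 1.91-fold against 1.45-fold for RDH11, and with voom its difference was -0.88 against -0.47. Its nearness too rests on the log2(FPKM + 1) scale. NAB2, a corepressor of EGR transcription factors, fell from 8.69 ± 0.269 to 5.90 ± 0.368 FPKM (SD, n = 3).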

How the data were processed

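Per the labels' protocols, RNA came from TRIzol extraction and the library kit was NEBNext Ultra. Per the submitters' processing notes, the tools were HISAT2, featureCounts, fastp, CASAVA and DESeq2 1.20.0 and the build GRCh38, without their roles. The authors deposited FPKM for 58735 genes in 6 libraries. GENCODE release 29 holds every identifier, 58690 of them at identical coordinates. FPKM times gene length gave whole fragments for 100% of values above 0 (tolerance 0.01). The library size implied by the FPKM was 0.952 times the fragment sum in controls and 1.07 times with dacomitinib, so a scaling was applied before deposit.

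From the FPKM, limma 3.58.1 (R 4.3.3) with a mean-variance trend was fitted to log2(FPKM + 1) of 13748 genes (mean of 1 FPKM or more), two-sided, with Benjamini-Hochberg adjustment over all of them and a threshold of 0.05. The procedure was tested on simulated data. Far fewer genes changed there than were called here, and no scaling beyond library size was applied, so that test does not cover the present setting. The labels do not state separate cultures within a group. The p-values therefore reflect only how these samples vary, possibly a technical spread. The members and lists were chosen with earlier results of these data known. The rule names the 9 members, up to 2 risers and 2 fallers past the threshold in each list, 5 receptors, and the 3 nearest profiles of the members with the largest rise and fall. Some genes that the rule names are not reported here. Other genes named, such as TGM1, KRT10 and CCDC33, were chosen after their values were seen. The 5 PLAAT genes were matched by gene identifier. The 17 alternatives were other pseudocounts, filters, scalings and limma settings, voom with TMM on recovered fragments, a block on the replicate numbers, and leaving out each library.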

Additional observations from a re-analysis of the deposited data

How the results depend on the processing

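The 5 members called higher stayed at 5 under all alternatives except a stricter filter (mean 5 FPKM), where they were 4, since it leaves CYP26B1 untested. The members called lower, 1 as reported, were 2 with quantile normalization, without the mean-variance trend and with voom, DHRS9 being the gene added, and 1 to 2 when 1 library was left out. Genes called higher, 3493 as reported, numbered 1946 with that filter and 5779 under TPM, and genes called lower, 4778 as reported, were 2721 with TPM. Leaving out 1 library gave 3036 to 3223 higher and 4283 to 4647 lower. Differences changed sign for CRABP2 with TPM (0.11) and quantile normalization (0.021) and for PPARD with TPM (0.076), and the cause was not tested. With a replicate block on the numbers in the column names, 5 members were higher and 1 lower, and 3265 genes higher and 4618 lower. Deviations from the group means correlated at 0.03, -0.02 and 0.04 between same-numbered libraries, and not every library correlated best with its own number. No pairing by number was visible, but so few libraries cannot settle whether samples were paired. The labels do not tie the numbers of the dacomitinib columns to replicates. At 27 to 82 fragments per library for LRAT and DHRS9, depth limits what can be seen.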

Other observations

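Some retinoid genes below the expression limit are given here by their recovered fragments, and they were picked after their values were seen. Summed over the 3 libraries of each group, controls first, ALDH1A2, the third retinaldehyde dehydrogenase, had 99 and 416 fragments. RDH12 and RDH16, from the list of other retinol and retinaldehyde oxidoreductases, had 1 and 34 and 9 and 60 fragments. DHRS2, from the same list, had 174 and 88. CES1, a carboxylesterase that can hydrolyse retinyl esters, had 4 and 58. LIPE, a lipase that can do the same, had 241 and 147. TGM2, a known retinoic acid target, had 8 and 15. TGM2 overlapped between the groups. In the limma fit without the filter, the adjusted p was 0.00956 for ALDH1A2, 0.00559 for RDH12, 0.00786 for RDH16 and 0.00244 for CES1, all called higher. That fit called 4121 of 32812 genes higher and 4568 lower. Because these genes were picked by their values, their calls do not describe the weak retinoid genes in general. The adjusted p was 0.0722 for LIPE, 0.0979 for DHRS2 and 0.682 for TGM2, which did not pass.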
